A study of Mus musculus with 18 samples.

Results

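The genes described here carry gases, ions, water or urea across the red cell membrane, or hydrate the carbon dioxide that the cell transports. The set has 9 members of the 54232 genes in the count table. They were chosen by name for these roles, with earlier results of these data known. They are the anion exchanger Slc4a1 (band 3), the gas channels Rhag and Aqp1, the carbonic anhydrases Car1 and Car2, the urea channel Slc14a1, the cation channels Kcnn4 and Piezo1 and the calcium pump Atp2b4. Their nascent RNA was followed in 18 libraries of C57BL/6 mouse fetal liver cells from e12.5-e13.5, with 3 libraries for each of 6 sorted populations. The 5 erythroid populations lacked lineage markers and were ordered by the transferrin receptor CD71 and the red cell antigen Ter119. S0-Low, named CD71 low in the titles and CD71- in the marker list, was Ter119-, S0-Medium was CD71 medium and Ter119-, S1 was CD71 high and Ter119-, S2 was CD71 high and Ter119 medium, and S3 was high for both. By the study's account, S0-Low includes stem and progenitor cells together with burst-forming erythroid units. It places early colony-forming units in S0-Medium, late ones in S1 and maturing cells in S2 and S3. The Lin+ population was sorted only as lineage-positive. All populations came from unmodified animals, were rested for 6 h after the sort and were given 500 µM 4-thiouridine (4sU) for 45 minutes, so that RNA made in that time could be pulled down and sequenced. The study calls the replicates biological, and neither it nor the labels say whether they came from separate litters or sorts, so p-values measure the spread between these libraries. In sorted bulk samples, fewer cells of a type and less RNA per cell cannot be told apart.

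Red cells take carbon dioxide from tissues to the lung mostly as bicarbonate. Carbonic anhydrases inside the cell convert carbon dioxide and water to bicarbonate and a proton, and band 3 exchanges the bicarbonate for chloride. Rhag and aquaporin 1 form channels for small molecules such as ammonia, carbon dioxide and water, the urea channel lets urea cross quickly, and the volume of the cell is set in part by calcium, which enters through the mechanically gated channel Piezo1, opens the potassium channel Kcnn4 and is pumped out by Atp2b4.

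The genes lie apart in the genome except for the carbonic anhydrases. In GRCm38, the build named in the submitters' processing notes, Slc4a1 spans chr11:102348820-102365281, Rhag chr17:40811099-40844094, Aqp1 chr6:55336299-55348555, Kcnn4 chr7:24369826-24385212, Piezo1 chr8:122481698-122551329 and Atp2b4 chr1:133702674-133801059, in RefSeq's annotation. Car1, at chr3:14766214-14808365, and Car2, at chr3:14886269-14900770, are part of 1 cluster in which they are separated by Car3.

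RefSeq promoter windows, which run from 250 bases before to 50 bases after the start that RefSeq's table uses, were at hand for 5 of the 9 genes. That start can lie inside the annotated gene, as for Rhag, where 200 bases of the window are in front of the gene, and for Kcnn4 and Atp2b4, whose windows lie in the gene and are not shown. The bases in front of the annotated gene are shown for 3 of them, because Rhag and Piezo1 both rose, by unlike amounts, and Aqp1 differed between replicates of one population more than between populations. Capitals mark the letters CCNCNCCC on either strand.
Rhag, chr17:40810899-40811098, + strand: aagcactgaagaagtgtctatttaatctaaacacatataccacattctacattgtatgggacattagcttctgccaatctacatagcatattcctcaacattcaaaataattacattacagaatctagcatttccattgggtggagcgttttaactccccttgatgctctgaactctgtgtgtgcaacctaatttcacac
Aqp1, chr6:55336049-55336298, + strand: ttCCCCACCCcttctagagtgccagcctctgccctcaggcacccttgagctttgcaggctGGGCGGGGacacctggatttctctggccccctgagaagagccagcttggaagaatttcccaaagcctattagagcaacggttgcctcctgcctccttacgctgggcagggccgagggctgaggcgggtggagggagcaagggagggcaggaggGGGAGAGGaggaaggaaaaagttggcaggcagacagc
Piezo1, chr8:122551330-122551579, - strand: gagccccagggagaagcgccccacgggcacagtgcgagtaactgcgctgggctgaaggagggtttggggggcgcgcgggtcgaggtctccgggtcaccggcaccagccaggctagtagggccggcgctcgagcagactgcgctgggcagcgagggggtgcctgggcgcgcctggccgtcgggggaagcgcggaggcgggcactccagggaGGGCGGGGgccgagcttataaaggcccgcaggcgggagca
In the full windows of 300 bases, the letters GATAA, the core bound by GATA factors, were found on either strand at Rhag and Atp2b4, 2 of 5 genes, against 25.4% of all 32851 promoters, and the match of Rhag lies inside the annotated gene, past the stretch shown. CCNCNCCC, bound by Krüppel-like factors, was found at Aqp1, Kcnn4 and Piezo1, 3 of 5, against 49.5% of promoters, and the shorter CACCC, which can overlap it, at 4 of 5, against 57.5%. A match describes the letters only.

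The depth was high for all 9 genes. Total counts ran from 9452476, in S0-Low replicate 3, to 40567976, and a limit of 3 counts corresponded to 0.0739 to 0.317 counts per 1000000 (CPM), which covers counting error only. Summed over 8 erythroid marker genes, S3 libraries held 22700 to 33900 CPM, S0-Low 520 to 1070 and Lin+ 252 to 315. The labels name primary erythroblasts for all 18 libraries, but Lin+ held 3300 to 5940 CPM over 8 granulocyte markers, against 0.0575 to 2.43 in S3, where 5 of the 8 were at or under 3 counts. S0-Low also held these markers at 329 to 777 CPM, endothelial markers at 82.5 to 268 and stem and progenitor markers at 858 to 1170. S3 against S0-Low thus has a baseline that is not erythroid alone. Of all counts in a library, the 9 genes held 0.0909% to 0.185% in S0-Low, 0.139% to 0.278% in S0-Medium, 0.222% to 0.544% in S1, 0.367% to 0.831% in S2, 1.29% to 1.72% in S3 and 0.0450% to 0.0586% in Lin+. Below, levels are normalised counts (each library brought to a common effective size, the mean over all 18), and values for a population are given in the order of replicates 1, 2 and 3.

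Between S0-Low and S3, 6 of the 9 genes rose, 1 fell and 2 did not pass the test, by edgeR's quasi-likelihood test at an adjusted p under 0.05. Slc4a1, Rhag, Atp2b4, Car2, Kcnn4 and Piezo1 were higher in S3 and Car1 was lower, while Aqp1 and Slc14a1 were not called. Over all 16555 tested genes, 13.4% were called higher and 22.4% lower in the same comparison. The median log2 fold change was 2.42 for the 9 genes and -0.54 for all tested genes. The same 6 genes were higher, and Car1 lower, in every S3 library than in every S0-Low library, which held for 16.6% and 25.9% of tested genes in the corresponding direction. DESeq2, which gave an adjusted p for 8 of the 9, also called 6 higher and 1 lower, against 15.1% and 29.4% of the genes it tested.

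**Figure D1:**
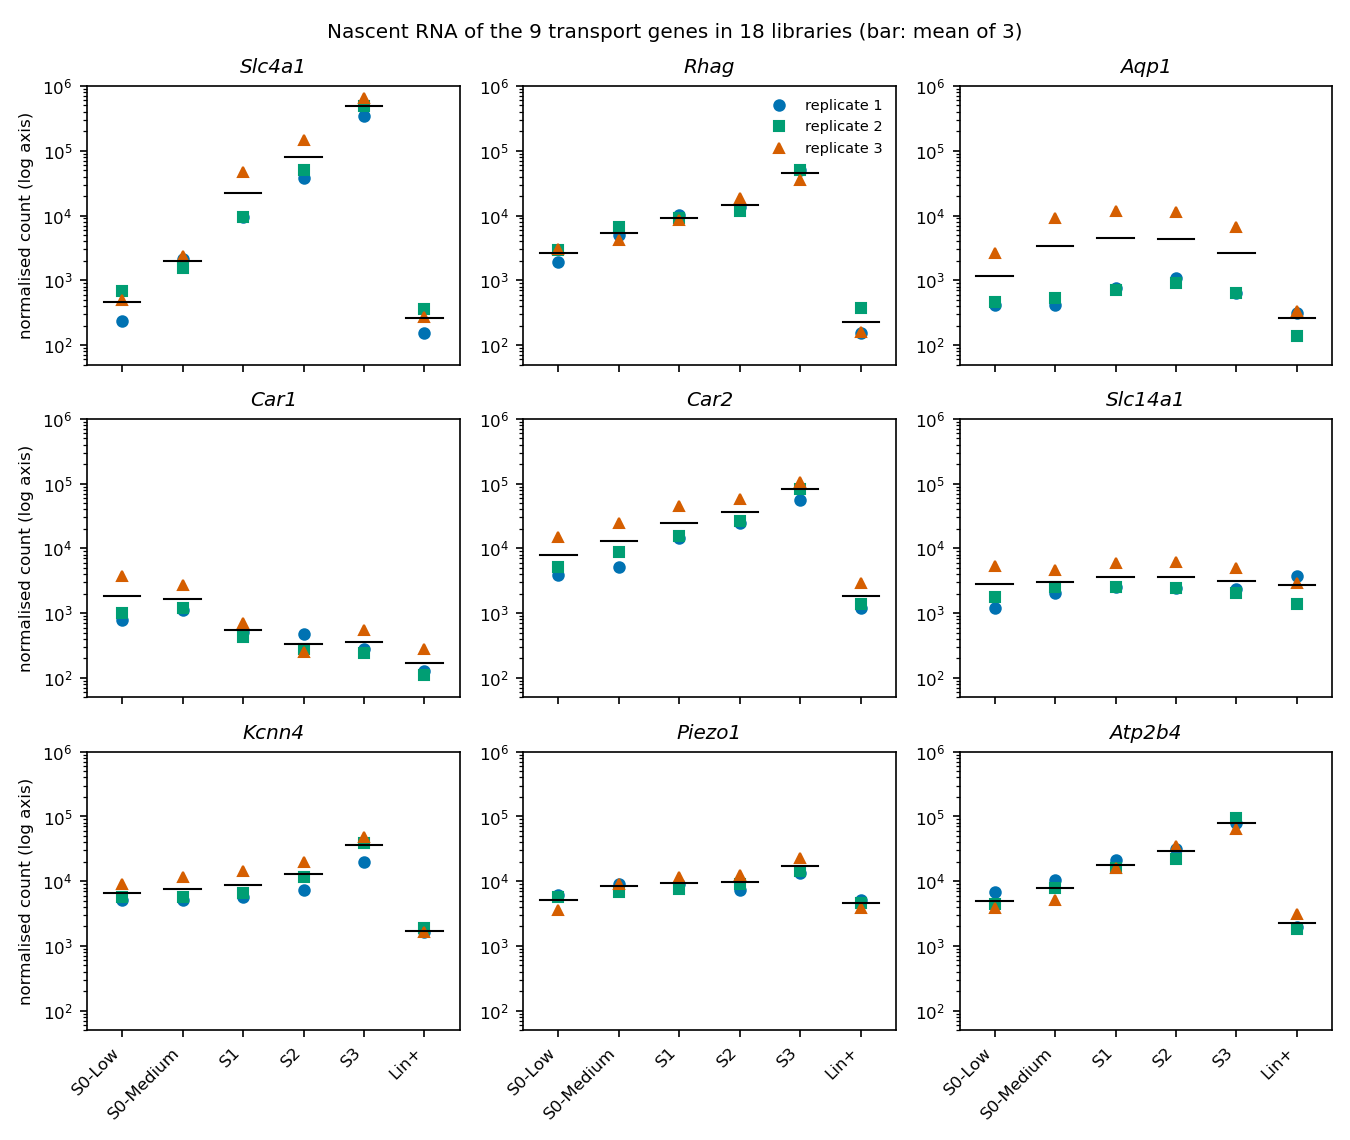
Normalised count (log axis) of each gene in the 18 libraries, with 1 point per library, its shape and colour giving the replicate, and a bar at the mean of 3. Slc4a1 climbs from 235 to 686 in S0-Low to 338418 to 662689 in S3, Car1 goes down, and the replicate 3 points of Aqp1 lie apart from the others in the 5 erythroid populations.

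**Figure D2:**
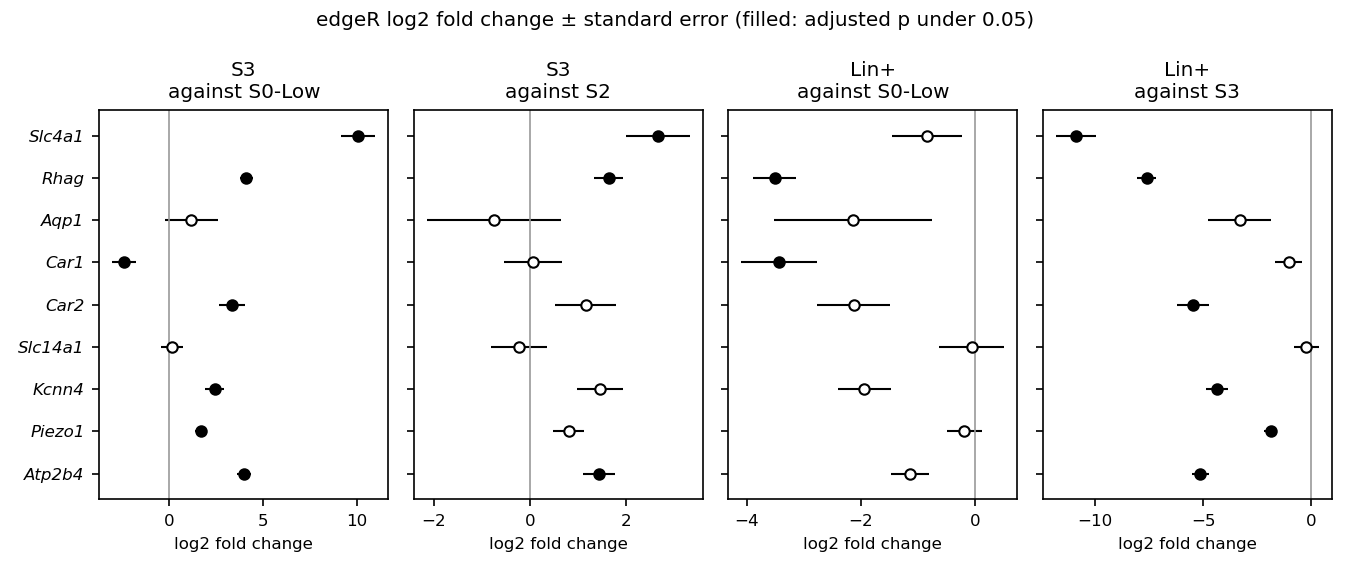
Log2 fold change (x axis) of each gene with its standard error in 4 comparisons, from edgeR, with filled points for an adjusted p under 0.05. In S3 against S0-Low 7 points are filled, in S3 against S2 3, in Lin+ against S0-Low 2 and in Lin+ against S3 6, and the scale of the x axis differs between panels.

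Slc4a1 had the widest range of the 9 genes. This exchanger also anchors the membrane skeleton. It was measured at 235, 686 and 489 normalised counts in S0-Low, 2118, 1541 and 2344 in S0-Medium, and 9582, 9563 and 47512 in S1. In S2 it was at 38538, 50604 and 147107 and in S3 at 338418, 492640 and 662689. The libraries of neighbouring populations did not overlap, except that S1 replicate 3 was above the lowest S2 library. The log2 fold change from S0-Low to S3 was 10.05 ± 0.92 (SE; adjusted p = 3.88e-06), a ratio of means of 1059.7. In Lin+ the gene was at 154, 362 and 269, a range that overlapped that of S0-Low.

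Slc4a2, an anion exchanger found in many tissues, was not called in this comparison, with means of 1415 ± 487 in S0-Low and 1161 ± 297 in S3 (SD, n = 3; log2 fold change -0.29 ± 0.43, adjusted p = 0.618). Within a library, the log2 ratio of Slc4a1 to Slc4a2 averaged -1.63 ± 0.94 (SD, n = 3) for S0-Low, 1.09 ± 0.28 for S0-Medium, 4.28 ± 0.89 for S1, 6.40 ± 0.69 for S2 and 8.70 ± 0.78 for S3. Slc4a1 thus went from below Slc4a2 in all 3 S0-Low libraries to above it in all 3 libraries of each later population. The difference between S3 and S0-Low was 10.33, with p = 0.1 in a two-sided exact permutation test, the smallest that 3 libraries against 3 allow.

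A list of 7 proteins that bind band 3 or sit with it in the membrane rose in the same comparison. It held Ank1 (ankyrin), Epb42 (protein 4.2), Epb41 (protein 4.1), Cd47, Icam4 and Rhd among others, and all 7 were called higher in S3 than in S0-Low, against 13.4% of all tested genes, with a median log2 fold change of 5.21 against -0.54. The list was chosen with earlier results of these data known. Epb42 had the largest log2 fold change, 7.69 ± 0.92 (SE; adjusted p = 2.81e-05), and Cd47 the smallest, 1.87 ± 0.52 (adjusted p = 0.0123).

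Rhag, which carries Rh proteins to the membrane and conducts ammonia and gases, rose more evenly. It was at 1888, 2962 and 3012 normalised counts in S0-Low, 5024, 6604 and 4213 in S0-Medium and 10290, 9112 and 8441 in S1. It then reached 13414, 11541 and 18640 in S2 and 50508, 49797 and 35863 in S3. No 2 neighbouring populations overlapped, and all were above Lin+, which was at 152, 379 and 161. The log2 fold change from S0-Low to S3 was 4.11 ± 0.33 (SE; adjusted p = 1.38e-06). Its partner Rhd rose further, from a mean of 521 ± 502 in S0-Low to 42833 ± 11410 in S3 (SD, n = 3), with a log2 fold change of 6.37 ± 1.10 (SE; adjusted p = 5.12e-04). Only 1.21% of the stretches of 31 bases in Rhag transcripts occur in another coding gene.

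Aqp1, the water channel of the red cell, was split by replicate. Its levels in replicates 1 and 2 were 421 and 456 in S0-Low, 419 and 534 in S0-Medium, 756 and 710 in S1, 1070 and 914 in S2 and 644 and 647 in S3. In replicate 3 they were 2601, 9279, 11837, 11205 and 6546 in the same order. Replicate 3 was 5.71 to 17.4 times the higher of the other replicates in all 5 erythroid populations, whereas in Lin+, at 314, 138 and 336, the factor was 1.07. By the smallest of its 5 ratios, with a pseudocount of 1 normalised count, Aqp1 ranked first of 16555 tested genes, and 4 genes reached a ratio of 4 in all 5 populations. The others were N4bp2l1, Mturn and a gene without a symbol, named here because of their values. Replicate 3 exceeded both other replicates in all 5 populations for 5.03% of tested genes.

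The neighbour of Aqp1 on chromosome 6, Mindy4, did not share this pattern. In S0-Medium it was at 201, 118 and 127 normalised counts, in S1 at 83.8, 111 and 99.3 and in S2 at 97.5, 76.7 and 45.5, with replicate 3 within or under the range of the other replicates. In S0-Low (183, 142 and 359) and S3 (26.6, 107 and 140) replicate 3 was the highest. With all libraries, the log2 fold change of Aqp1 from S0-Low to S3 was 1.18 ± 1.41 (SE; adjusted p = 0.531), with a 95% interval of -1.82 to 4.17. That fit leaves the split by replicate in the spread, and all 3 same-numbered pairs of libraries were higher in S3. With replicates blocked by number, the log2 fold change was 0.75 ± 0.31 (SE; adjusted p = 0.0627). Without replicate 3 of any population, an alternative chosen after seeing the data, it was 0.56 ± 0.40 (adjusted p = 0.286). What sets replicate 3 apart was not tested.

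**Figure D3:**
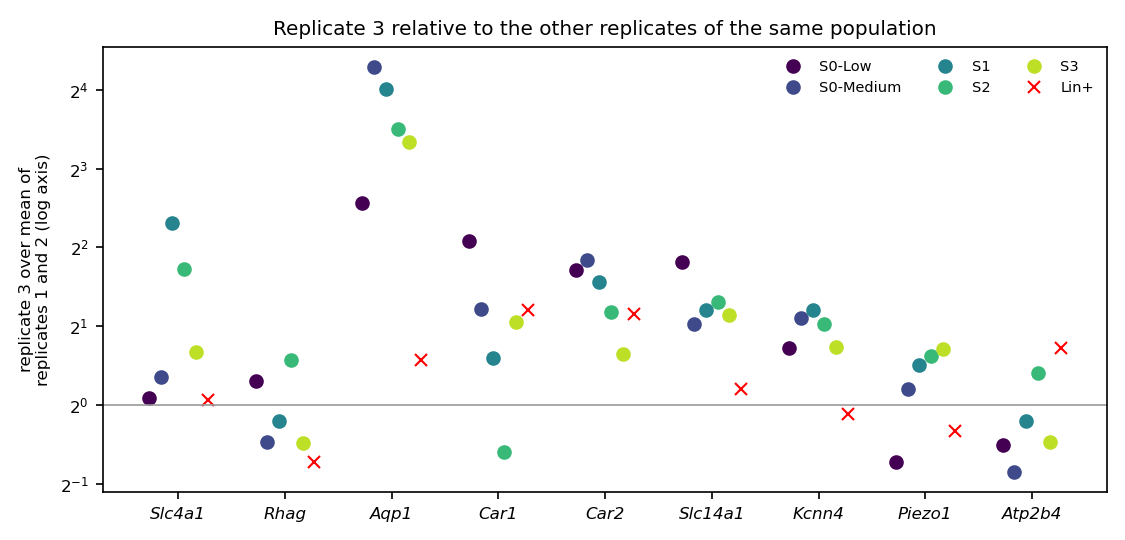
Level in replicate 3 divided by the mean of replicates 1 and 2 of the same population (log axis), for each gene, with filled points for the 5 erythroid populations and a cross for Lin+. Aqp1 is at 5.94 to 19.5 in the erythroid populations and at 1.49 in Lin+, and Slc4a1, Car2, Slc14a1 and Kcnn4 are above 1 in all 5 erythroid populations.

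Other genes of the set shared a smaller shift. Car2, Slc14a1 and Kcnn4 were also higher in replicate 3 than in both others in 5 of 5 erythroid populations, against 5.03% of tested genes. Slc4a1, Car1 and Piezo1 were higher in 4 of 5, for which no share over all genes was counted. Rhag was higher in 2 and lower in 3, and Atp2b4 was higher in 1 and lower in 3. Beside this, replicate 3 held the most erythroid marker RNA in all 5 erythroid populations, with 1070 CPM against 520 and 807 in S0-Low, 2340 against 1130 and 1660 in S0-Medium, 5920 against 3290 and 3330 in S1, 10800 against 5880 and 5870 in S2 and 33900 against 22700 and 30300 in S3. Its part in the shift was not tested. Leaving out replicate 3 of every population also gave 6 genes higher and 1 lower in S3 against S0-Low, where 13.7% and 24.0% of tested genes were called.

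Car1 and Car2 went in opposite directions. Both are cytosolic carbonic anhydrases, Car2 being the faster enzyme. Car2 was at 3908, 5146 and 14830 normalised counts in S0-Low and at 55333, 81730 and 107330 in S3, without overlap. Between them it was at 5178, 8758 and 24993 in S0-Medium, 14500, 15517 and 44336 in S1 and 24596, 26616 and 57854 in S2, and each neighbouring pair of populations overlapped, although all 3 same-numbered pairs of libraries were higher in the later population at each step. The log2 fold change from S0-Low to S3 was 3.35 ± 0.69 (SE; adjusted p = 0.00174).

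Car1 was at 774, 1008 and 3761 in S0-Low, 1106, 1191 and 2678 in S0-Medium and 517, 421 and 711 in S1. It stood at 483, 280 and 254 in S2 and 276, 247 and 540 in S3. The mean was 1658 in S0-Medium and 550 in S1, the only neighbouring populations without overlap. From S0-Low to S3 it fell by 2.38 ± 0.63 on the log2 scale (SE; adjusted p = 0.00921), and without S0-Low replicate 3, the shallowest library and the one with the most Car1, it fell by 1.37 and was no longer called (adjusted p = 0.0708). Of the S0-Low libraries, that one also held the most endothelial marker RNA (268 CPM against 82.5 and 105) and the least granulocyte (329 against 460 and 777) and megakaryocyte marker RNA (80.6 against 159 and 163). Over the same populations, summed stem and progenitor markers were at 858 to 1170 CPM in S0-Low and 0.227 to 10.6 in S3. The part of these in the result was not tested.

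Within a library, the log2 ratio of Car1 to Car2 averaged -2.21 ± 0.20 (SD, n = 3) for S0-Low, -2.76 ± 0.51 for S0-Medium, -5.28 ± 0.59 for S1, -6.62 ± 1.07 for S2 and -7.81 ± 0.41 for S3. In Lin+ it was -3.29 ± 0.20. Car2 was thus the more abundant in all 18 libraries. The ratio fell by 5.61 from S0-Low to S3 (p = 0.1, two-sided exact permutation test, the smallest possible). Replicate 3 was the highest of its population only in S0-Low and the lowest in S0-Medium, S1 and S2.

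**Figure D4:**
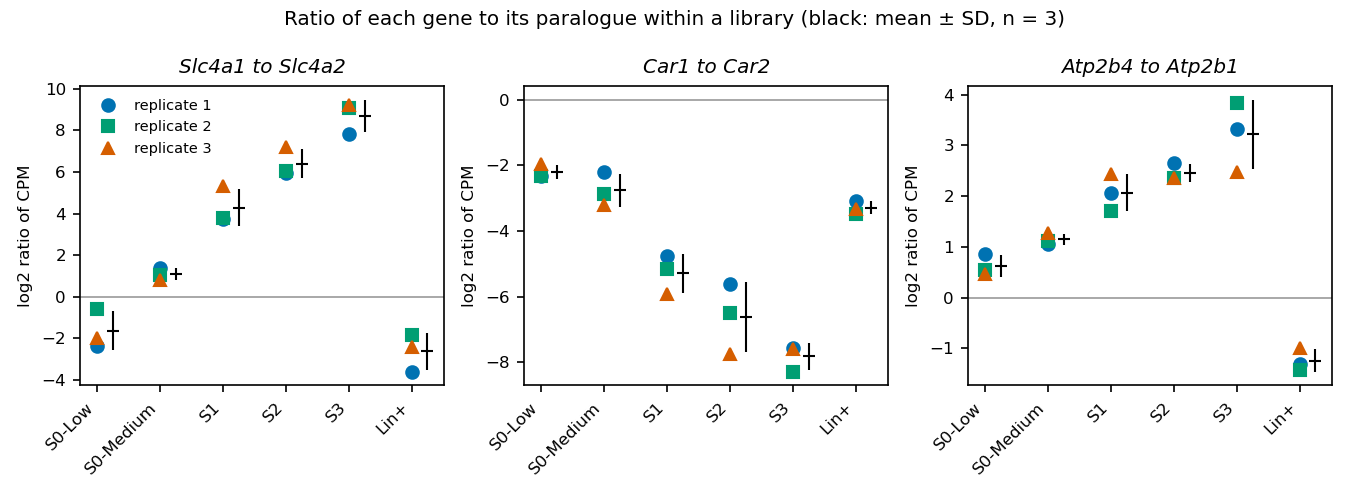
Log2 ratio of CPM (y axis, with 0.5 CPM added to each gene) of Slc4a1 to Slc4a2, Car1 to Car2 and Atp2b4 to Atp2b1 in each library, with the mean and SD of 3 libraries in black. From S0-Low to S3 the means go from -1.63 to 8.70, from -2.21 to -7.81 and from 0.62 to 3.22.

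Slc14a1, on chromosome 18, which carries the Kidd blood group in humans, was not called in any comparison. Its levels were 1209, 1805 and 5318 normalised counts in S0-Low, 2014, 2535 and 4647 in S0-Medium and 2544, 2531 and 5878 in S1. They were 2479, 2446 and 6082 in S2, 2395, 2060 and 4934 in S3 and 3682, 1400 and 2935 in Lin+. All 6 populations overlapped, and replicate 3 was the highest library of each erythroid population. The log2 fold change from S0-Low to S3 was 0.17 ± 0.58 (SE; adjusted p = 0.835), with a 95% interval of -1.05 to 1.40, and its sign depended on the scaling, with -0.77 on library totals. A long noncoding gene, Gm36338, overlaps Slc14a1, and whether the counting used strand is not stated.

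Both cation channels rose between S0-Low and S3. Kcnn4, the calcium-activated potassium channel known as the Gardos channel, was at 5189, 5696 and 9010 normalised counts in S0-Low, 5124, 5776 and 11744 in S0-Medium and 5664, 6667 and 14287 in S1. It was at 7396, 11805 and 19681 in S2 and 19675, 38493 and 48699 in S3. Replicate 3 was the highest in each of these populations, and S3 was above S0-Low in every library, with a log2 fold change of 2.42 ± 0.50 (SE; adjusted p = 0.00175). In Lin+ it was at 1657, 1901 and 1644, below every erythroid library.

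Piezo1, whose gain-of-function variants cause hereditary xerocytosis, had the smallest of the called rises. It was at 6136, 5804 and 3615 in S0-Low and between 6818 and 12598 in all libraries of S0-Medium, S1 and S2, and reached 13326, 14544 and 22846 in S3. S3 did not overlap any other population, and the log2 fold change from S0-Low was 1.70 ± 0.33 (SE; adjusted p = 0.0011). Lin+, at 5159, 4662 and 3914, overlapped S0-Low. The gene overlaps Ctu2 at one end and shares 14.6% of its stretches of 31 bases with Ctu2 transcripts, so some of its counts could belong to that gene.

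Atp2b4, the calcium pump PMCA4, was at 6723, 4377 and 3923 in S0-Low, 10534, 7831 and 5097 in S0-Medium and 21438, 15728 and 16214 in S1. It was at 30954, 22431 and 35350 in S2 and 79249, 96352 and 63544 in S3. From S0-Medium on, no neighbouring populations overlapped. The log2 fold change from S0-Low to S3 was 3.99 ± 0.37 (SE; adjusted p = 4.19e-06). Its relative Atp2b1, a pump of most tissues, rose less, from a mean of 3175 ± 451 to 8637 ± 2405 (SD, n = 3; log2 fold change 1.44 ± 0.36 SE, adjusted p = 0.0061).

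The log2 ratio of Atp2b4 to Atp2b1 averaged 0.62 ± 0.21 (SD, n = 3) for S0-Low, 1.15 ± 0.11 for S0-Medium, 2.07 ± 0.36 for S1, 2.46 ± 0.18 for S2 and 3.22 ± 0.68 for S3. In Lin+ it was -1.24 ± 0.22, so Atp2b4 was the more abundant in all 15 erythroid libraries and the less abundant in all 3 Lin+ libraries. The difference between S3 and S0-Low was 2.59 (p = 0.1, two-sided exact permutation test, the smallest possible).

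The order of the 9 genes changed along with these levels. Per kb of annotated exon, Car2 led in S0-Low with a mean of 4450 ± 3343 normalised counts per kb (SD, n = 3), followed by Kcnn4 with 2624 ± 821 and Car1 with 1566 ± 1408, and Slc4a1 was last with 96.1 ± 46.3. The place of Car1 rested on replicate 3, with 656, 854 and 3188 per kb against 807, 1266 and 1288 for Rhag. In S1, Slc4a1 had 1959 and 1955 per kb in replicates 1 and 2, below Rhag with 4399 and 3896, and 9714 in replicate 3, above Rhag with 3609, and Car1 was last with a mean of 466 ± 125. That last place rested on replicate 3 of Aqp1, which had 288, 270 and 4506 per kb against 438, 357 and 603 for Car1. In S3, Slc4a1 led with 101802 ± 33163, Car2 had 45536 ± 14533, Rhag 19406 ± 3531, Kcnn4 14097 ± 5826, Atp2b4 8831 ± 1818, Piezo1 1702 ± 522, Aqp1 995 ± 1297, Slc14a1 783 ± 393 and Car1 300.3 ± 137. The place of Aqp1 rested on replicate 3, with 245, 246 and 2492 per kb against 599.6, 516 and 1235 for Slc14a1. Libraries of Slc4a1 and Car2 did not overlap in S3, with 69192 per kb as the lowest for Slc4a1 and 59994 as the highest for Car2. Nascent RNA holds introns, and how they were counted is not stated, so these levels per exon length are approximate.

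**Figure D5:**
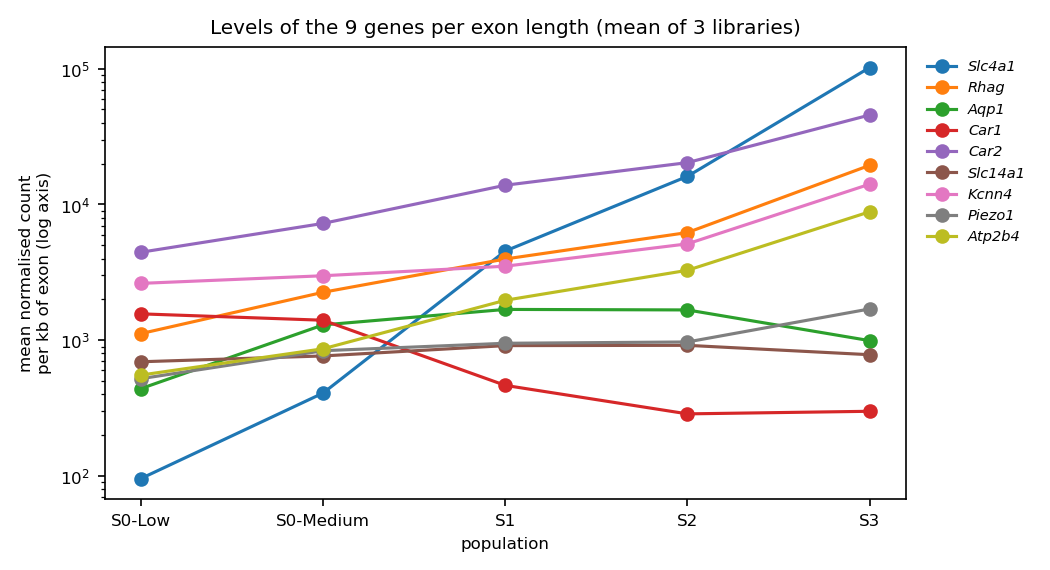
Mean normalised count per kb of exon (log axis) of the 9 genes in the 5 erythroid populations, with 1 line per gene and the mean of 3 libraries at each point. Slc4a1 goes from the last place at 96.1 in S0-Low to the first at 101802 in S3, and Car1 goes from 1566 to 300.3.

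Between neighbouring populations, and with genes of low counts filtered and no block on replicates, calls by edgeR came at the step from S2 to S3. In that fit no gene of the 9 was called in S0-Medium against S0-Low, S1 against S0-Medium or S2 against S1, where 0.0% of all tested genes were called in either direction. At an unadjusted p under 0.05, 3 genes were above their S0-Low level in S0-Medium, namely Slc4a1, Rhag and Piezo1, against 1.78% of tested genes, and the libraries of these 3 did not overlap, which held for 5.2% of tested genes in that direction. Slc4a1, Rhag and Atp2b4 were higher in S1 than in S0-Medium, against 1.68%, and Car1 was lower, against 5.18%, all 4 without overlap (6.96% and 10.2% of tested genes). The same 3 were higher in S2 than in S1, against 1.0%, Rhag and Atp2b4 without overlap (3.61%). The largest of these was Slc4a1 in S1 against S0-Medium, with a log2 fold change of 3.47 ± 0.69 (SE; adjusted p = 0.0925). Without S1 replicate 3 the value was 2.26 (adjusted p = 0.451). It was called once replicates were blocked by number (3.08, adjusted p = 0.0196), and DESeq2 called it (3.38, adjusted p = 1.37e-04) and Atp2b4 (1.07, adjusted p = 0.0396), so 1 gene was called higher with the block, against 0.169% of tested genes, and 2 by DESeq2, against 0.229%. Without the filter on low counts edgeR called Slc4a1 in S0-Medium against S0-Low, S1 against S0-Medium and S2 against S1 (adjusted p = 8.87e-05, 1.52e-12 and 0.00122). At the other early steps DESeq2 called 0 of 8, and it gave no adjusted p for Aqp1 in any comparison.

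From S2 to S3, 3 of the 9 genes were called higher and 0 lower, against 3.26% and 6.09% of tested genes, with a median log2 fold change of 1.17 against -0.31. They were Slc4a1 with 2.67 ± 0.67 (SE; adjusted p = 0.0208), Rhag with 1.65 ± 0.30 (adjusted p = 0.00383) and Atp2b4 with 1.44 ± 0.34 (adjusted p = 0.0151). These 3 and Piezo1 had no overlap between S2 and S3, against 8.99% of tested genes. Once replicates were blocked by number the count was 5, with Kcnn4 (adjusted p = 3.45e-04) and Car2 (1.27, adjusted p = 0.00367) in addition, against 7.3% of tested genes, and DESeq2 also called 5, with Kcnn4 and Piezo1 in addition, against 8.38%. Without replicate 3 of any population, 6 genes were called, against 7.33%. Slc4a1 lost its call without S2 replicate 1 (adjusted p = 0.0931), S2 replicate 2 (0.0938) or S3 replicate 3 (0.0608), and Atp2b4 without S2 replicate 1 (0.0533) or S2 replicate 2 (0.0787). Kcnn4 gained one without S3 replicate 1 (0.0458) or S2 replicate 3 (0.0289). In a fit of only the 6 libraries compared, 0 genes were called, against 0.63%.

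Of the 9 genes, 6 were called lower in Lin+ than in S3 and 0 higher, against 14.1% and 28.2% of 17755 tested genes, with a median log2 fold change of -4.36 against 0.69 over all tested genes. Slc4a1 fell by 10.89 ± 0.92 on the log2 scale (SE; adjusted p = 2.31e-07), Rhag by 7.62 ± 0.45 (adjusted p = 1.0e-08) and Piezo1 by 1.88 ± 0.31 (adjusted p = 0.000138), with Car2, Atp2b4 and Kcnn4 between them. Car1, Slc14a1 and Aqp1 were not called, with log2 fold changes of -1.05 ± 0.61, -0.23 ± 0.57 and -3.31 ± 1.45. The libraries of Aqp1 and of the 6 called genes did not overlap, which held for 17.3% of tested genes in that direction. Aqp1 was called with the replicate block (-2.09, adjusted p = 0.00619) and without replicate 3 of any population (-1.53, adjusted p = 0.0265).

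Fewer calls separated Lin+ from S0-Low. In Lin+ against S0-Low, 2 of the 9 genes were called lower, against 0.22% of tested genes, and 0 higher, against 0.496%. Rhag was lower by a log2 fold change of -3.50 ± 0.38 (SE; adjusted p = 9.27e-05) and Car1 by -3.43 ± 0.66 (adjusted p = 0.0178). Car1 lost its call without Lin+ replicate 1 (adjusted p = 0.115), Lin+ replicate 2 (0.134) or S0-Low replicate 3 (0.1155). The libraries did not overlap for 6 genes, all lower in Lin+, against 6.96% of tested genes. Without replicate 3 of any population 5 genes were called lower, with Car2, Kcnn4 and Atp2b4 in addition, against 0.395% of tested genes. DESeq2 and the fit of only the 6 libraries compared each called 3 lower (0.762% and 0.333% of tested genes), and Kcnn4 was called by both, with adjusted p = 0.00925 and 0.0087. Slc4a1 was at -0.84 ± 0.61 (adjusted p = 0.83), Piezo1 at -0.18 ± 0.30 (adjusted p = 0.986) and Slc14a1 at -0.05 ± 0.57 (adjusted p = 0.999). Beside this, the granulocyte markers were at 3300 to 5940 CPM in Lin+ and 329 to 777 in S0-Low, and their part in the result was not tested.

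A list of 66 related genes, which held paralogues of the 9 and other carriers and channels, some of them of membranes inside the cell, had 65 genes in the table and 42 that could be tested between S0-Low and S3. Of these, 8 were called higher (19.0%) and 9 lower (21.4%), against 13.4% and 22.4% of all tested genes, and 25 were not called, with a median log2 fold change of -0.44 fitted, or -0.35 with the 4 genes without a count in S3 at their bounds, against -0.54 for all tested genes. On library totals 5 were higher and 14 lower, where 6.98% and 37.6% of all tested genes were. Of the 16 genes with at least 10 counts in each compared library 7 were higher and 1 lower, where 19.2% and 19.3% of all such genes were. The largest rises were of Slc4a5, a sodium bicarbonate cotransporter (8.64 ± 1.06 SE, adjusted p = 3.43e-05), Rhd (above), Clcn3, a chloride-proton exchanger (4.50 ± 0.52, adjusted p = 2.26e-05), and Aqp3, an aquaglyceroporin (3.75 ± 1.05, adjusted p = 0.0126). Slc4a5 had 16 to 37 counts in the S0-Low libraries and a mean of 11209 ± 6355 normalised counts in S3 (SD, n = 3), while Aqp3 spread from 204 to 2396 in S3 and had 0 counts in 1 S0-Low library.

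Large falls were those of Atp1b1, a subunit of sodium pumps, Atp2a3, a calcium pump of the endoplasmic reticulum, and Trpc6, a cation channel. Atp1b1 had a mean of 111 ± 5.87 normalised counts in S0-Low and no count in any S3 library, which makes it at least 19.4-fold lower against a limit of 3 counts per library. Atp2a3 had 2112 to 4981 in S0-Low and 0 to 41.8 in S3, where its median library had no count, and Trpc6 had 50.5 to 908 in S0-Low and 0 to 34.6 in S3. All 3 passed the filter on low counts through the populations where they are high, so that their calls are no support for a fall of the list. All 3 were higher in Lin+ than in S3, with means of 626 ± 229, 7132 ± 2623 and 3939 ± 2296 in Lin+. The granulocyte markers took the same order, with 329 to 777 CPM in S0-Low, 0.0575 to 2.43 in S3 and 3300 to 5940 in Lin+, and their part in these differences was not tested. Between Lin+ and S3, 12 of 46 tested genes of the list were called higher (26.1%) and 8 lower (17.4%), against 28.2% and 14.1% of all tested genes, with a median of 0.70 fitted, or 0.50 with 5 genes at their bounds, against 0.69. On library totals 19 were higher, where 40.1% of all tested genes were, and of 17 genes with at least 10 counts in each compared library 2 were, where 21.1% of all such genes were.

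Over the 15 erythroid libraries, genes most like each member by Pearson's r of log2 CPM, among 11420 genes, included the following. For Slc4a1 they were Alas2, the first enzyme of haem synthesis in red cells, and Dmtn (dematin), both at r = 0.995, and Slc25a37 (mitoferrin), at 0.993. For Rhag they were Tfrc, the transferrin receptor (0.980), and Sptb, a spectrin (0.977), and for Car2 Hemgn (0.993) and Stom (0.991). Those of Kcnn4 were Dedd2 (0.989), Dlgap5 (0.987) and Ccnb2, a mitotic cyclin (0.984). Piezo1 was closest to Trappc10 (0.962), Mpp2 (0.957) and Clcn7 (0.955), and Atp2b4 to Arrb1 (0.974), Gm867 (0.972) and Arhgef12 (0.971).

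The genes outside the common rise had other neighbours. Aqp1 was closest to Uhrf1bp1 (0.951), N4bp2l1 (0.928) and Bcl2l11 (0.927), and Slc14a1 to Zfp36l1 (0.937), Aqp1 (0.924) and Tifa (0.916). Car1 was closest to Cttnbp2nl (0.923), F10 and Treml1 (both 0.920). Among the members, Slc4a1, Rhag and Atp2b4 correlated at 0.947 to 0.964, and Car1 was negative against Slc4a1 (-0.752), Rhag (-0.738) and Atp2b4 (-0.834). The libraries share the sorting order and the replicate numbers, so these values describe the 15 libraries and carry no test.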

How the data were processed

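The authors sorted fetal liver cells, labelled nascent RNA with 4sU, pulled it down and sequenced it with a stranded kit. The submitters' processing notes name kallisto 0.43.0 and build GRCm38. The values are gene counts as deposited by the authors, 1 column per library and not normalised, whole numbers in 54232 genes. Transcript set, counting strand and the handling of introns are not given in the sources used here. The kit used PCR without molecular identifiers, so counting limits cover counting error only.

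Groups followed the labels, with 3 libraries each. Counts were tested with edgeR 4.0.16 in R 4.3.3 (quasi-likelihood, two-sided, TMM factors, filterByExpr, population as the only term, Benjamini-Hochberg over all tested genes). The 15 erythroid libraries were fitted together (16555 genes tested), and all 18 where Lin+ was compared (17755 genes). Ratios of related genes were tested by exact permutation. All 9 members are named. Of the related genes, up to 4 with the largest rise and 4 with the largest fall from S0-Low to S3 are named, if called and at 100 or more normalised counts, and of the alike genes the 3 with the highest r. Some genes that these rules name are not reported here. Members and lists were chosen with earlier results of these data known. Alternatives were DESeq2 1.42.0, RLE factors, library totals, no filter, at least 10 counts in each compared library, the replicate number as a block, a fit of only the 6 libraries compared and leaving out each replicate. Same-numbered libraries of neighbouring populations deviated together (r = 0.113 to 0.424 in every pair), so values with the replicate block are given beside results of these steps where the block changed a call, while the fit without it gave the main values. The numbers were not taken as pairs for S3 against S0-Low (lowest r = 0.0374), Lin+ against S0-Low (0.0835) or Lin+ against S3 (0.0755). For Aqp1, which was split by replicate, values with the block are given for S3 against S0-Low and Lin+ against S3.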

Additional observations from a re-analysis of the deposited data

How the results depend on the processing

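The limits are few replicates and 1 shallow library (9452476 counts). The count of members called higher in S3 against S0-Low was 6 in every alternative run, and that of members lower in Lin+ against S3 was 6 or 7, the other being Aqp1. The cause of the changes below was not tested. The sizes of the 6 rises from S0-Low to S3 moved over the alternatives. Log2 fold changes ranged over 9.15 to 10.36 for Slc4a1, 3.28 to 4.37 for Rhag and 3.19 to 4.19 for Atp2b4. They ranged over 2.43 to 4.12 for Car2, 1.52 to 2.71 for Kcnn4 and 0.85 to 1.84 for Piezo1.

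Without filter, 1 member, Slc4a1 each time, was called higher in S0-Medium against S0-Low (0.149% of all genes), S1 against S0-Medium (0.284%) and S2 against S1 (0.0588%), 5 were higher in S3 against S2 (2.89%), and 4 lower in Lin+ against S0-Low (0.272%). With the replicate block, the counts were 1 higher in S1 against S0-Medium, 5 in S3 against S2, 4 lower in Lin+ against S0-Low (0.648% of all genes) and 7 lower in Lin+ against S3 (16%), and the block changed no other count of members. DESeq2 gave 2 higher in S1 against S0-Medium and 5 in S3 against S2, where only the 6 libraries compared gave 0. Leaving out replicates gave 0 to 1 lower in S3 against S0-Low (14.7% to 24.0% of all genes), 1 to 6 higher in S3 against S2 (0.934% to 7.33%) and 1 to 5 lower in Lin+ against S0-Low (0.0698% to 0.395%), with the highest share at the highest count in the latter 2. Related genes numbered 5 higher and 14 lower in S3 against S0-Low, and 19 higher in Lin+ against S3, on library totals, and 1 lower and 2 higher with at least 10 counts in each compared library. On library totals the median of all genes moved from -0.54 to -1.36 in S3 against S0-Low, with calls of 1156 higher and 6228 lower against 2220 and 3712.

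Over all single-gene values in all alternatives, 68 changed sign, 30 gained a call and 12 lost one, and 765 did neither. No sign changed for a member in a comparison in which it was called. For Slc14a1, S3 against S0-Low gave -0.77 on library totals, -0.12 with at least 10 counts and -0.0369 with 6 libraries. S2 against S1 gave -0.084 with RLE factors, -0.19 on totals, -0.0288 without filter, -0.0133 with the block, -0.0532 with at least 10 counts, -0.0054 with 6 libraries and -0.084 by DESeq2. Lin+ against S0-Low gave 0.20 with the block, and Lin+ against S3 gave 0.60 on totals, 0.13 with at least 10 counts and 0.0040 with 6 libraries. For Piezo1 in S2 against S1, RLE factors gave -0.0536, totals -0.12, at least 10 counts -0.0236 and DESeq2 -0.0536. Aqp1 in S2 against S1 gave 0.25 with the block, and Car1 in S3 against S2 gave -0.48 on totals and -0.13 with the block. Leaving out replicates, Aqp1 ranged over -0.85 to 2.55 in S3 against S0-Low, -1.32 to 2.94 in S0-Medium against S0-Low, -2.22 to 3.16 in S1 against S0-Medium, -2.16 to 2.58 in S2 against S1 and -2.78 to 1.39 in S3 against S2. Slc14a1 ranged over -0.33 to 1.01 in S3 against S0-Low and in S0-Medium against S0-Low, -0.27 to 0.63 in S1 against S0-Medium, -0.57 to 0.53 in S2 against S1, -0.73 to 0.34 in S3 against S2, -0.41 to 0.82 in Lin+ against S0-Low and -0.52 to 0.26 in Lin+ against S3. Car1 ranged over -0.72 to 0.88 in S0-Medium against S0-Low and -0.55 to 0.40 in S3 against S2, and Car2 over -0.23 to 1.50 in the former. Kcnn4 ranged over -0.32 to 0.46 in S0-Medium against S0-Low and -0.29 to 0.65 in S1 against S0-Medium, where Piezo1 ranged over -0.0115 to 0.32, and Piezo1 over -0.21 to 0.22 in S2 against S1.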

Other observations

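Beside Aqp1, N4bp2l1 and Mturn, other genes with a high lowest replicate 3 ratio over the 5 erythroid populations included Neil1 (a DNA glycosylase) at 3.52 and Ssh1 (a cofilin phosphatase) at 3.29. They were picked after their values were seen, and the ratio is replicate 3 over the higher of the other replicates.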
